A study of Mus musculus with 56 samples.

Results

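The bacteria of large intestinal (LI) contents were compared between Western diet-fed MC4R knockout mice (KO-WD, n = 8) and Western diet-fed wild-type mice (WT-WD, n = 6). The 14 libraries were chosen by genotype, diet and gut site from the 56 libraries of the series, which also covered the small intestine (SI) and a normal diet (KO-ND, n = 8, and WT-ND, n = 6). All mice were male. They began the assigned diet at 10 weeks of age and ate it for 12 weeks. The contents of 4 cm of LI were then taken from each mouse, and the 16S rRNA gene in them was sequenced. The wild-type mice were C57BL/6J animals bought from a commercial breeder, whereas the knockout mice belonged to a line made earlier. Both were kept in the same room on the same chow before the diets began, and the study states elsewhere that the mice of both genotypes were bred under the same conditions. The wild-type mice are not described as littermates of the knockout mice, so genotype and any difference in origin cannot be told apart in a comparison of KO with WT. A 16S library holds no mouse sequence, so the genotype labels could not be checked.

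MC4R is a receptor of hypothalamic neurons that restrains feeding, and mice that lack it overeat and become obese. The mouse LI holds a dense community of anaerobes, mostly Firmicutes and Bacteroidetes, that ferment fiber and host mucus. The 16S rRNA gene carries stretches that vary between bacteria, and each distinct sequence is counted as an amplicon sequence variant (ASV), which is close to a strain or a group of strains.

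The total count per library was 22550 to 35236 in KO-WD mice (median 29181.5) and 28752 to 34174 in WT-WD mice (median 32464.5). A share is given here as a percentage of that total, so a taxon can gain share because others lose it. The 14 libraries held 562 ASVs, which belonged to 59 genera, 37 families and 9 phyla. Where a taxon had no counts in a group, its upper limit was set to what 3 counts would make of all counts of the group together, 0.00129% in KO-WD and 0.00156% in WT-WD mice. This limit covers counting error only. A fold change against such a group was given as "at least", as the mean share of the other group over that limit. Of 15 genera listed as skin, soil or reagent bacteria or plastids, 1 had counts in these libraries, and it reached at most 0.0314% of a library. Taxa were tested with edgeR's quasi-likelihood test and Benjamini–Hochberg adjustment within each rank, with a threshold of 0.05. In Greengenes names, a genus is "unnamed" where the reference has no name for it and "not assigned" where the classification stopped at a higher rank.

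*Allobaculum* was the most abundant genus in both genotypes, and the genera that differed were mostly ones counted in 1 genotype only. A genus of 1 genotype only was tested only where at least 4 mice of that genotype had counts. Such genera thus entered the test through the group where they were high. Their number describes the genera that met the filter and is not support for a difference of the community. A Desulfovibrionaceae genus, *[Prevotella]* and several smaller Bacteroidales genera were found in KO-WD mice and had no counts in WT-WD mice, whereas rc4-4 and an Erysipelotrichaceae *Clostridium* were without counts in KO-WD mice and present in WT-WD mice. *Lactobacillus* held a larger share in KO-WD mice, close to the threshold of the test, and *Lactococcus* and *Oscillospira* held smaller shares. Of 45 genera tested, 13 passed (28.9%), 8 of them higher (17.8%) and 5 lower (11.1%) in KO-WD mice. The median log2 fold change over all 45 genera was -0.63. At family rank, 10 of 28 passed (35.7%), 7 higher (25%) and 3 lower (10.7%). At phylum rank, 2 of 7 passed (28.6%), both higher. The balance of higher and lower genera moved with the scaling: 61.5% of the calls were higher with library totals, 72.7% with TMM factors and 46.7% with centred log ratios, and the log2 fold changes were shifted by a median of 0.50 with TMM factors and -0.20 with centred log ratios. With centred log ratios the share of higher calls was 41.7% of families, against 70% with library totals, and 66.7% of phyla, and with DESeq2 it was 50% of phyla.

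**Figure D1:**
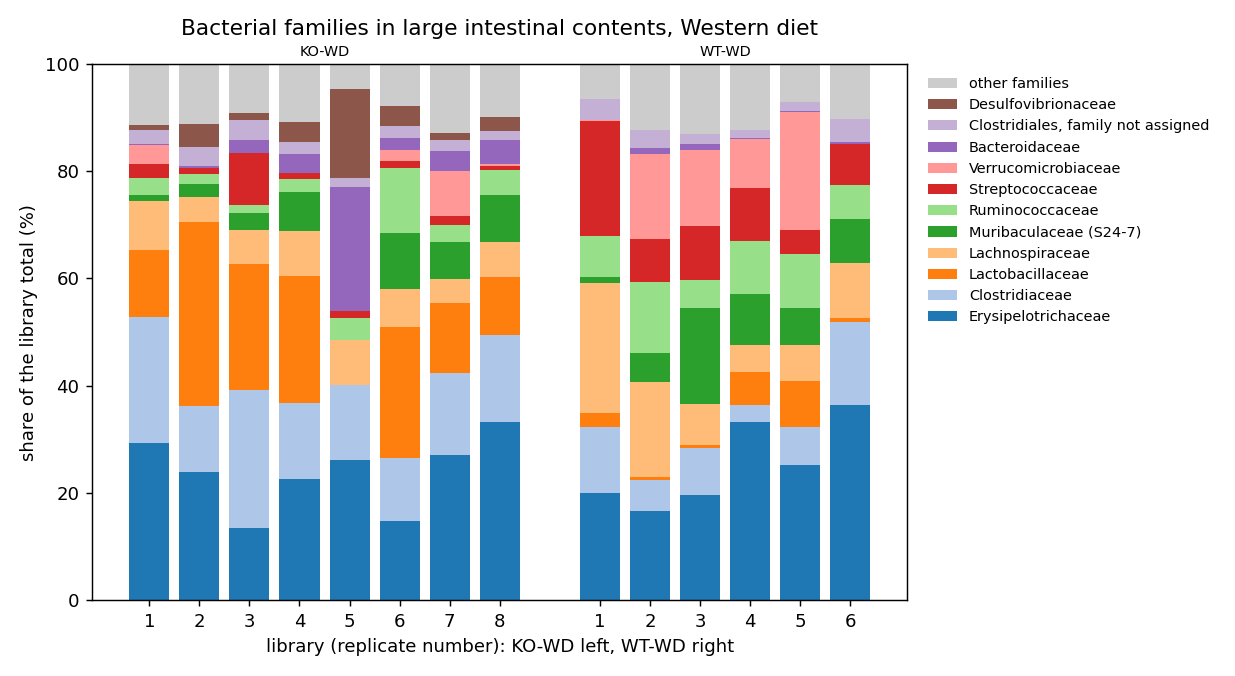
Share of the library total (%) held by the 11 most abundant families in each LI library, with the 8 KO-WD libraries on the left and the 6 WT-WD libraries on the right. Erysipelotrichaceae held a large share in both groups, Desulfovibrionaceae appears only in the KO-WD bars, and KO-WD replicate 5 stands apart with 23.1% Bacteroidaceae and no Muribaculaceae.

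Proteobacteria, a phylum of mostly minor members in the healthy mouse gut, rose in KO-WD mice. Its share was lowest at 0.918%, with a median of 3.20% and a highest value of 17.2% in KO-WD mice, against a lowest of 0%, a median of 0.0345% and a highest of 0.145% in WT-WD mice. Every KO-WD mouse lay above every WT-WD mouse. This gave a log2 fold change of 6.46 (SE 1.50, edgeR adjusted p = 0.00464). The phylum was made of different organisms in the 2 genotypes. In KO-WD mice, Desulfovibrionaceae, anaerobes that reduce sulfate to hydrogen sulfide, averaged 4.33% of the total, of 4.42% for the phylum. In WT-WD mice all counts of the phylum were *Escherichia*, a facultative anaerobe.

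The unnamed Desulfovibrionaceae genus was a single variant, ASV_013, and was present in all 8 KO-WD mice. It ranged from 0.866% to 16.6% there (median 3.11%) and had no counts in any of the 6 WT-WD mice. The groups did not overlap, which held for 2 of the 45 tested genera, whereas 28.9% passed the test. The mean was 4.30% ± 5.16 (SD, n = 8) in KO-WD mice, which was at least 2762-fold higher than the limit in WT-WD mice (edgeR adjusted p = 3.41e-05). The highest value came from KO-WD replicate 5. A second variant of the family, ASV_324, which was not assigned to a genus, was found in 6 of 8 KO-WD mice at up to 0.0524% and in no WT-WD mouse, at least 15.1-fold higher (edgeR adjusted p = 0.0140 as a genus).

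*Escherichia* consisted of 1 variant, ASV_240, classified as *E. coli*. It had no counts in the 8 KO-WD mice and reached 0.145% in WT-WD mice, with a median of 0.0345% and counts in 4 of 6 mice. It was at least 38.5-fold lower in KO-WD mice (edgeR adjusted p = 0.0149). Of the 13 Proteobacteria genera listed, 5 had counts and 3 were tested, and all 3 passed, 2 higher and 1 lower, beside 17.8% and 11.1% over all tested genera. Each of the 3 had counts in 1 genotype only and met the filter through it, so these counts are not support for a difference of the phylum.

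Within the Bacteroidales, the order of anaerobes that break down plant and host polysaccharides, 4 of 8 tested genera were higher in KO-WD mice, none was lower and 4 did not pass, beside 17.8% higher and 11.1% lower over all tested genera. The 4 higher genera had no counts in WT-WD mice and met the filter through KO-WD mice only. These counts are thus not support for a rise of the order. The summed order held 5.74% to 23.1% in KO-WD mice and 2.12% to 25.4% in WT-WD mice. The genus written *[Prevotella]*, of the family Paraprevotellaceae, was a single variant, ASV_010. It held 1.16% to 4.19% in 7 KO-WD mice, with a median of 2.82% over all 8. KO-WD replicate 5 and all 6 WT-WD mice had no counts of it. It was at least 1696-fold higher in KO-WD mice (edgeR adjusted p = 0.000687).

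The other 3 Bacteroidales genera that rose were smaller and were likewise without counts in WT-WD mice. AF12, a genus of Rikenellaceae with the single variant ASV_108, was found in 7 of 8 KO-WD mice at a median of 0.239% and a highest of 0.605% (at least 176-fold, edgeR adjusted p = 0.00188). The unnamed Bacteroidales genus was found in 7 of 8 KO-WD mice at a median of 0.120% and a highest of 0.568% (at least 103-fold, edgeR adjusted p = 0.00629). *Odoribacter*, which makes short-chain fatty acids, was found in 6 of 8 KO-WD mice at a median of 0.146% and a highest of 0.341% (at least 85.8-fold, edgeR adjusted p = 0.00752). KO-WD replicate 5 had no counts of any of the 3.

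*Bacteroides*, a genus of versatile glycan degraders, lay at the threshold. It held 0.224% to 23.1% in KO-WD mice (median 2.96%), against 0% to 1.13% in WT-WD mice (median 0.247%). With a log2 fold change of 3.42 (SE 1.26), the edgeR adjusted p was 0.0502 for the genus and 0.0398 for the family Bacteroidaceae, which holds the same counts. The family did not pass with DESeq2 (adjusted p = 0.0771), centred log ratios (0.0630) or the filter at 0.1% (0.0512), whereas the genus passed with TMM factors (0.0230), DESeq2 (0.00447) and all 4 LI groups in 1 fit (0.0127). Leaving out KO-WD replicate 3, 4, 5 or 8 or WT-WD replicate 4, 5 or 6 ended the call of the family, with an adjusted p of 0.0516, 0.0532, 0.0875, 0.0536, 0.0851, 0.0793 or 0.0730. Leaving out KO-WD replicate 1 or 2 or WT-WD replicate 1 or 3 brought the genus past the threshold (adjusted p = 0.0348, 0.0419, 0.0480 or 0.0481).

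TM7, also called Saccharibacteria, are tiny bacteria that live attached to other bacteria. The phylum was present as its family F16 in 5 of 8 KO-WD mice at up to 0.363% (median 0.0609%) and had no counts in WT-WD mice. It was at least 62.0-fold higher in KO-WD mice (edgeR adjusted p = 0.0196 for the phylum and 0.0149 for the genus). It was the least widespread of the genera that rose, with 3 KO-WD mice at 0. By an exact rank-sum test the genus did not pass.

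**Figure D2:**
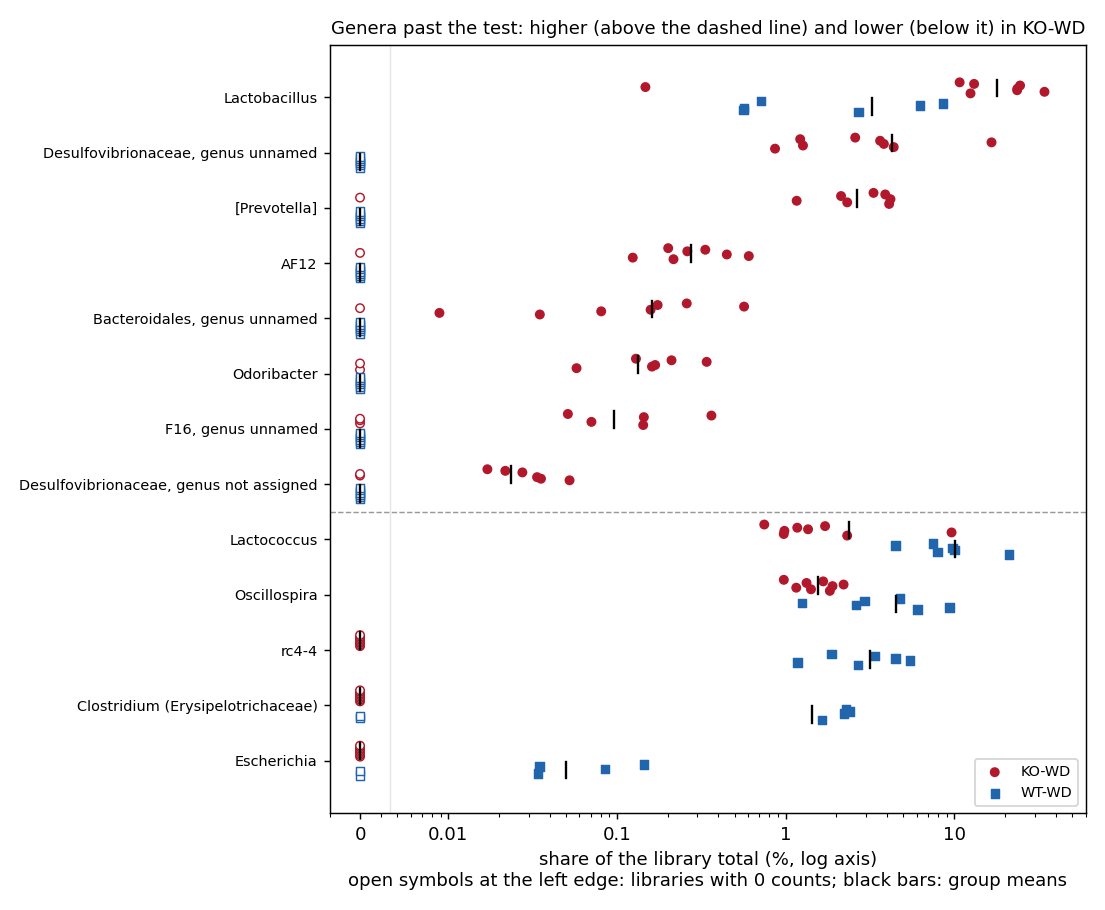
Share of the library total (%, log axis) of the 13 genera that passed the test, with 1 point per mouse, KO-WD above WT-WD in each row. Open symbols at the left edge are libraries without counts, and black bars are group means. Genera above the dashed line were higher and those below it lower in KO-WD mice, and 10 of the 13 have 1 group entirely at 0.

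Lactic acid bacteria changed in both directions. *Lactobacillus*, which ferments sugars to lactate, ranged from 0.148% to 34.3% in KO-WD mice (median 18.4%), against 0.562% to 8.60% in WT-WD mice (median 1.71%). In 7 of 8 KO-WD mice it exceeded the highest WT-WD value, and KO-WD replicate 5 was below the lowest. The mean was 17.8% ± 10.7 in KO-WD mice (SD, n = 8) and 3.24% ± 3.43 in WT-WD mice (SD, n = 6), a log2 fold change of 2.46 (SE 0.89, edgeR adjusted p = 0.0491). The adjusted p was so close to the threshold that leaving out any of 11 of the 14 libraries ended the call. These were KO-WD replicates 1, 2, 3, 4, 6, 7 and 8 (adjusted p = 0.0517, 0.0819, 0.0672, 0.0694, 0.0727, 0.0516 and 0.0530) and WT-WD replicates 1, 2, 3 and 6 (0.0824, 0.0848, 0.0735 and 0.0785). It did not pass with TMM factors (adjusted p = 0.0694), centred log ratios (0.0830), no filter (0.0530), the filter at 0.1% (0.0542) or all 4 LI groups in 1 fit (0.0526). Without KO-WD replicate 5 the log2 fold change was 2.65 (SE 0.69, edgeR adjusted p = 0.00912).

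Most *Lactobacillus* counts in KO-WD mice came from ASV_002. It was counted in 7 of 8 KO-WD mice, with a median of 16.7% and a highest of 30.3%, against 4 of 6 WT-WD mice, with a median of 0.108% and a highest of 7.79%. This variant had a log2 fold change of 2.81 (SE 1.66, edgeR adjusted p = 0.205). It passed with centred log ratios (adjusted p = 0.0382), without the filter (0.00535) and by the exact rank-sum test (0.0390). The variants ASV_011 (log2 fold change -1.12, edgeR adjusted p = 0.502) and ASV_017, classified as *L. reuteri* (edgeR adjusted p = 0.968), did not pass.

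*Lactococcus*, a lactic acid bacterium best known from milk, fell in KO-WD mice. It ranged from 0.748% to 9.64% in KO-WD mice (median 1.27%), against 4.50% to 21.1% in WT-WD mice (median 8.86%). All KO-WD mice except replicate 3 were below the lowest WT-WD mouse. In log2 fold change this was -2.10 (SE 0.61, edgeR adjusted p = 0.0149). Both of its variants, ASV_006 and ASV_007, were counted in all 14 libraries and both fell, with log2 fold changes of -2.04 (SE 0.73, edgeR adjusted p = 0.0273) and -2.17 (SE 0.75, edgeR adjusted p = 0.0227). WT-WD replicate 1 was far above the rest, and without it the adjusted p was 0.0506 for the genus, 0.0992 for ASV_006 and 0.0720 for ASV_007. ASV_006 also lost its call without KO-WD replicate 4, 7 or 8 (adjusted p = 0.0512, 0.0518 or 0.0526). With TMM factors the adjusted p was 0.131 for the genus, 0.147 for ASV_006 and 0.112 for ASV_007, and with no filter or with all 4 LI groups in 1 fit neither variant passed (0.0589 to 0.189). *Streptococcus*, the third tested genus of the list, did not pass (edgeR adjusted p = 0.746).

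Among the other Firmicutes, 3 genera fell. rc4-4, a genus of Peptococcaceae with the single variant ASV_024, had no counts in any of the 8 KO-WD mice and ranged from 1.18% to 5.45% in WT-WD mice (median 3.04%). The groups did not overlap, and it was at least 2457-fold lower in KO-WD mice (edgeR adjusted p = 3.12e-05). It was the other genus, besides the unnamed Desulfovibrionaceae genus, whose groups did not overlap.

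The Erysipelotrichaceae *Clostridium*, a single variant classified as *C. cocleatum* (ASV_030), was also without counts in KO-WD mice. It held 1.65% to 2.42% in 4 WT-WD mice, and the other 2 had no counts, so that it was at least 1104-fold lower in KO-WD mice (edgeR adjusted p = 0.00629). *C. cocleatum* is known to degrade mucin.

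*Oscillospira*, a genus of Ruminococcaceae, ranged from 0.976% to 2.21% in KO-WD mice (median 1.54%), against 1.25% to 9.39% in WT-WD mice (median 3.86%). WT-WD replicate 4 lay within the KO-WD range, and the other WT-WD mice lay above it. The log2 fold change was -1.53 (SE 0.47, edgeR adjusted p = 0.0204), and without WT-WD replicate 2 it was -1.18 (edgeR adjusted p = 0.0663). It did not pass with TMM factors (log2 fold change -0.85, adjusted p = 0.177) or centred log ratios (adjusted p = 0.0909). Its counts were spread over 54 variants, of which 1 fell, 20 did not pass and 33 were too rare to test. The variant that fell, ASV_098, had counts in 1 of 8 KO-WD mice and 4 of 6 WT-WD mice (edgeR adjusted p = 0.0296), and did not pass without KO-WD replicate 4 (adjusted p = 0.0503) or WT-WD replicate 2 (adjusted p = 0.0561). The exact rank-sum test (adjusted p = 0.0899) and DESeq2 (adjusted p = 0.0513) did not call it.

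The remaining groups of fermenters held no genus that passed. None of the 6 Lachnospiraceae genera, which make butyrate and acetate from fiber, passed the test, although the summed family held 4.52% to 9.20% in KO-WD mice and 4.96% to 24.2% in WT-WD mice (family log2 fold change -0.80, edgeR adjusted p = 0.109). None of the 3 tested genera of *Bifidobacterium* and Coriobacteriaceae passed, with a summed share of 3.50% ± 2.11 in KO-WD mice and 1.49% ± 1.61 in WT-WD mice (SD). *Turicibacter* averaged 0.621% in KO-WD mice and 0.601% in WT-WD mice (edgeR adjusted p = 0.982). Apart from *Oscillospira*, the 4 other tested Ruminococcaceae genera did not pass, and neither did 8 of 9 other Clostridiales genera. The unnamed Clostridiales genus and the unnamed Ruminococcaceae genus were just short of the threshold (edgeR adjusted p = 0.0506 for each, log2 fold change -2.26 and -3.81), as was *Coprobacillus* (0.0505). The fold change of the unnamed Ruminococcaceae genus rested on WT-WD replicates 4 and 5, at 8.28% and 5.95%. Its median was 0.198% in KO-WD mice and 0.163% in WT-WD mice.

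*Akkermansia*, the main mucin-degrading genus of the gut, did not pass. It had no counts in 4 of 8 KO-WD mice, with a median of 0.150% and a highest of 8.49%, whereas all 6 WT-WD mice had it at 0.127% to 22.1% (median 11.7%). Its log2 fold change was -2.53 (SE 1.76, edgeR adjusted p = 0.312), and with centred log ratios the genus passed (adjusted p = 0.0440). The 2 groups overlapped, with WT-WD replicates 1 and 6 at 0.264% and 0.127%. *Mucispirillum*, another bacterium of the mucus layer, was found in 3 of 8 KO-WD and 2 of 6 WT-WD mice (edgeR adjusted p = 0.401).

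*Allobaculum*, an Erysipelotrichaceae genus, was the most abundant genus of both groups. It held 13.5% to 33.1% in KO-WD mice (median 25.02%) and 16.4% to 34.1% in WT-WD mice (median 21.2%), and the groups overlapped over nearly their whole range (log2 fold change 0.01, SE 0.26, edgeR adjusted p = 0.982). *Clostridium* of the family Clostridiaceae averaged 9.72% ± 5.09 in KO-WD mice and 4.45% ± 3.76 in WT-WD mice (SD, edgeR adjusted p = 0.167), and SMB53 of the same family averaged 4.68% ± 2.04 in KO-WD mice and 3.17% ± 2.23 in WT-WD mice (SD, edgeR adjusted p = 0.444). The whole family averaged 16.6% ± 5.13 in KO-WD mice and 8.73% ± 4.49 in WT-WD mice (SD). It was just short of the threshold (log2 fold change 0.93, SE 0.36, edgeR adjusted p = 0.0504). At phylum rank Firmicutes held 57.4% to 85.0% in KO-WD mice and 60.1% to 96.9% in WT-WD mice, and Bacteroidetes held 5.74% to 23.1% in KO-WD mice and 2.12% to 25.4% in WT-WD mice. Neither phylum passed (edgeR adjusted p = 0.860 and 0.458), nor did Actinobacteria (0.307), Verrucomicrobia (0.336) or Deferribacteres (0.439). The mean log2 ratio of Firmicutes to Bacteroidetes was 2.51 ± 0.948 in KO-WD mice and 3.10 ± 1.37 in WT-WD mice (SD). The difference of -0.59 did not pass (two-sided exact permutation test of the mean, p = 0.378).

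The single variants were then tested. Of 182 ASVs tested, 82 passed (45.1%), 50 higher (27.5%) and 32 lower (17.6%) in KO-WD mice. Which direction held more calls depended on the test and the filter, with 29 higher and 44 lower by the exact rank-sum test and 109 higher and 186 lower without the filter on rare ASVs. Of all 562 ASVs, 226 had counts in KO-WD mice only, 184 in WT-WD mice only and 152 in both. The 152 shared ASVs carried most of the counts, 74.1% ± 11.1 in KO-WD mice and 81.4% ± 2.56 in WT-WD mice (SD). ASVs of KO-WD mice only carried 25.9% ± 11.1 of the counts of KO-WD mice (range 14.8% to 46.4%), and ASVs of WT-WD mice only carried 18.6% ± 2.56 of the counts of WT-WD mice. Of these ASVs, 125 of 226 and 122 of 184 were found in a single mouse.

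Some of the 562 variants were counted in nearly every mouse of 1 genotype and in no mouse of the other. ASV_013 (Desulfovibrionaceae), ASV_016 (*Bacteroides*) and ASV_066 (Lachnospiraceae) had counts in all 8 KO-WD mice and in no WT-WD mouse, and 17 ASVs had counts in at least 7 KO-WD mice and in no WT-WD mouse. Conversely, 7 ASVs, among them ASV_024 (rc4-4), ASV_051 (Rikenellaceae) and ASV_046 (*Adlercreutzia*), had counts in no KO-WD mouse and in all 6 WT-WD mice, and 14 ASVs had counts in no KO-WD mouse and in at least 5 WT-WD mice. These ASVs were picked by their presence in these same libraries. Their numbers, out of 562, are thus not support for a difference of the community. Only 5 ASVs were counted in all 14 libraries. They were ASV_001 (*Allobaculum*), ASV_004 (SMB53), ASV_005 (*C. celatum*) and the *Lactococcus* variants ASV_006 and ASV_007.

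Most variants of Muribaculaceae, the main Bacteroidetes family of the mouse gut and named S24-7 in Greengenes, were counted in 1 genotype only. In WT-WD mice, however, most counts of the family came from variants also counted in KO-WD mice. As a whole the family did not pass. It held 0% to 10.4% in KO-WD mice (median 5.08%) and 1.26% to 17.9% in WT-WD mice (median 7.63%), with a log2 fold change of -0.71 (SE 0.95, edgeR adjusted p = 0.591). Yet of its 65 variants, 42 were counted in KO-WD mice only, 17 in WT-WD mice only and 6 in both. Of its 29 variants common enough to test, 20 were higher in KO-WD mice, 8 were lower and 1 did not pass, beside 27.5% higher and 17.6% lower over all tested ASVs. The other 36 were too rare. A variant of 1 genotype had to have counts in at least 4 mice of that genotype to be tested, so these counts describe the variants that met the filter and are not support for a difference of the family. Variants of KO-WD mice only made up 91.9% ± 6.84 of the Muribaculaceae counts in the 7 KO-WD mice that had the family (SD), and variants of WT-WD mice only made up 32.5% ± 10.1 of those in the 6 WT-WD mice (SD).

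ASV_045 and ASV_047 were the most abundant Muribaculaceae variants of KO-WD mice only, each found in 7 of 8 mice. Their highest shares were 1.11% and 1.07%, at least 350-fold and 295-fold higher than in WT-WD mice (edgeR adjusted p = 0.00264 for each). ASV_019 and ASV_021 led in WT-WD mice. ASV_019 reached 0.144% in 1 KO-WD mouse, replicate 6, and was at 0 in the other 7, against 0.286% to 4.00% in WT-WD mice (median 2.59%, log2 fold change -6.95, SE 1.83, edgeR adjusted p = 0.00578). ASV_021 was counted in 7 KO-WD mice at up to 0.253%, against 0.231% to 7.36% in WT-WD mice (median 1.54%, log2 fold change -4.23, SE 1.15, edgeR adjusted p = 0.00691). ASV_025, ASV_059 and ASV_067 were found in no KO-WD mouse and in 5, 4 and 4 WT-WD mice, at least 265-fold, 238-fold and 273-fold lower in KO-WD mice.

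**Figure D3:**
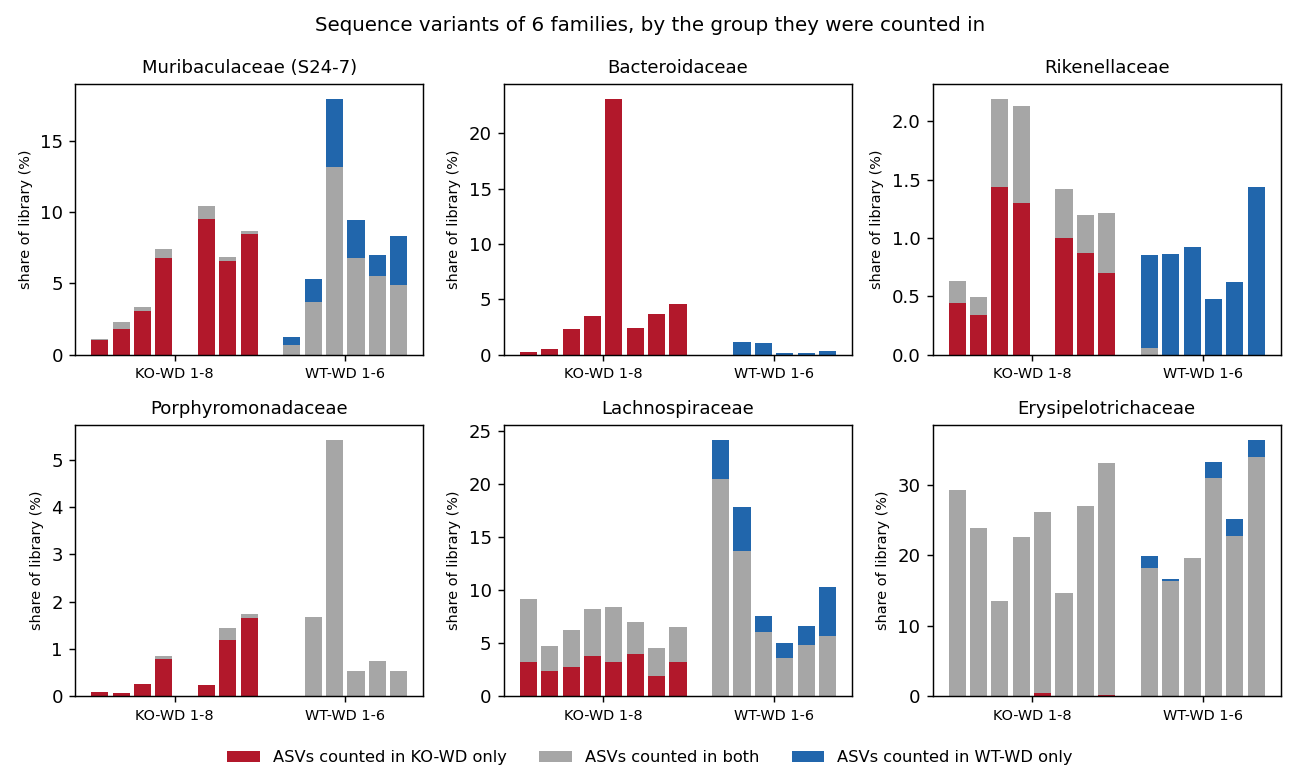
Share of the library total (%) in 6 families, split into ASVs counted in KO-WD mice only, in both groups and in WT-WD mice only, with 1 bar per library, KO-WD replicates 1 to 8 on the left and WT-WD replicates 1 to 6 on the right. Bacteroidaceae had no ASV in both groups, Muribaculaceae of KO-WD mice was mostly made of variants not counted in WT-WD mice, and Erysipelotrichaceae was almost entirely made of a variant counted in both.

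Other Bacteroidales families also held variants of 1 genotype only. *Bacteroides* had 10 variants, 8 of KO-WD mice only and 2 of WT-WD mice only, and no variant was shared. Of these, 4 were higher and 2 lower in KO-WD mice and 4 were too rare to test, beside 27.5% higher and 17.6% lower over all tested ASVs. Each tested variant met the filter through its own genotype only, so these counts are not support for a difference of the genus. ASV_016 ranged from 0.0524% to 23.1% in the 8 KO-WD mice (median 1.68%, at least 2571-fold, edgeR adjusted p = 0.000588). ASV_034 was found in 5 of 8 KO-WD mice at up to 1.79% (at least 297-fold, edgeR adjusted p = 0.00761), and did not pass by the exact rank-sum test (adjusted p = 0.0899). ASV_131, classified as *B. ovatus*, was found in none of the KO-WD mice and in 5 of 6 WT-WD mice at up to 0.866% (at least 238-fold lower, edgeR adjusted p = 0.00264).

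Rikenellaceae averaged 1.16% ± 0.770 in KO-WD mice and 0.863% ± 0.330 in WT-WD mice (SD, edgeR adjusted p = 0.747). Of its 11 variants, 9 were of KO-WD mice only, 1 was of WT-WD mice only and 1 was shared. In the test 6 were higher and 1 lower in KO-WD mice, beside 27.5% higher and 17.6% lower over all tested ASVs, and 4 were too rare. A variant of 1 genotype met the filter through that genotype only, so these counts are not support for a difference of the family. The variant of WT-WD mice only, ASV_051, held 0.474% to 1.44% there (median 0.830%) and made up 98.9% ± 2.80 of the family's counts in WT-WD mice (SD, at least 659-fold lower in KO-WD mice, edgeR adjusted p = 0.000588). *Parabacteroides* (edgeR adjusted p = 0.444 for the genus) had 3 variants, 2 of KO-WD mice only and 1 shared. The 2 were higher and the shared 1 was lower in KO-WD mice, beside 27.5% higher and 17.6% lower over all tested ASVs. The 2 met the filter through KO-WD mice only, so these counts are not support for a difference of the genus. The shared variant held all counts of the genus in WT-WD mice. ASV_048 was found in 7 of 8 KO-WD mice at up to 1.54% and in no WT-WD mouse (at least 310-fold, edgeR adjusted p = 0.00264).

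Variants of 1 genotype were also seen in some genera outside the Bacteroidetes. *Adlercreutzia*, a genus known to convert plant isoflavones, did not pass (log2 fold change -1.41, SE 0.58, edgeR adjusted p = 0.0703). Its variant ASV_046 was at 0 in KO-WD mice and held 0.149% to 0.344% in the 6 WT-WD mice (at least 185-fold lower, edgeR adjusted p = 0.00162). Another variant, ASV_110, singled out after its values were seen, was found in 7 of 8 KO-WD mice at up to 0.164% and in no WT-WD mouse (at least 53.7-fold higher, edgeR adjusted p = 0.00293).

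*Akkermansia* had 2 variants, both classified as *A. muciniphila*. ASV_009 was found in 4 of 8 KO-WD mice and all 6 WT-WD mice and did not pass (log2 fold change -2.29, SE 1.67, edgeR adjusted p = 0.329). It passed with centred log ratios (adjusted p = 0.0363) and without the filter (0.0391). ASV_036 was found in no KO-WD mouse and in 4 of 6 WT-WD mice at up to 4.77% (at least 1180-fold lower, edgeR adjusted p = 0.00264).

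Lachnospiraceae held 144 variants, with 41 of KO-WD mice only, 53 of WT-WD mice only and 50 shared. Of the tested ones, 5 were higher, 9 were lower and 30 did not pass, a smaller share of calls than the 45.1% over all tested ASVs. ASV_066 ranged from 0.108% to 1.05% in all 8 KO-WD mice (median 0.249%) and had no counts in WT-WD mice (at least 278-fold, edgeR adjusted p = 0.00162). ASV_043 and ASV_094 were each found in 7 of 8 KO-WD mice at up to 1.48% (at least 351-fold and 255-fold), and ASV_123 was found in no KO-WD mouse and in 4 of 6 WT-WD mice at up to 0.456% (at least 189-fold lower). The Clostridiaceae and Erysipelotrichaceae rested mostly on shared variants. In Clostridiaceae, variants of KO-WD mice only held 2.68% ± 2.62 of the family's counts in KO-WD mice, and variants of WT-WD mice only held 1.80% ± 3.97 in WT-WD mice (SD). In Erysipelotrichaceae, variants of KO-WD mice only held 0.293% ± 0.446 in KO-WD mice, and variants of WT-WD mice only held 5.55% ± 3.81 in WT-WD mice (SD).

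Community composition was then compared as a whole. By Bray–Curtis distance between ASV shares, genotype accounted for 36.7% of the variance, and by Jaccard distance, which counts presence or absence, for 27.8%. Both gave p = 0.000333 in an exact permutation test over the 3003 divisions of the 14 mice, the smallest value it can give. The mean Bray–Curtis distance was 0.636 between a KO-WD and a WT-WD mouse, 0.433 between KO-WD mice and 0.485 between WT-WD mice. *Lactobacillus* contributed 12.9% of the distance between the groups, the unnamed Muribaculaceae genus 10.1%, *Akkermansia* 7.59%, the Lachnospiraceae genus not assigned 7.38% and *Lactococcus* 6.43%. Of these, *Akkermansia*, the Muribaculaceae genus and the Lachnospiraceae genus did not pass when tested alone.

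**Figure D4:**
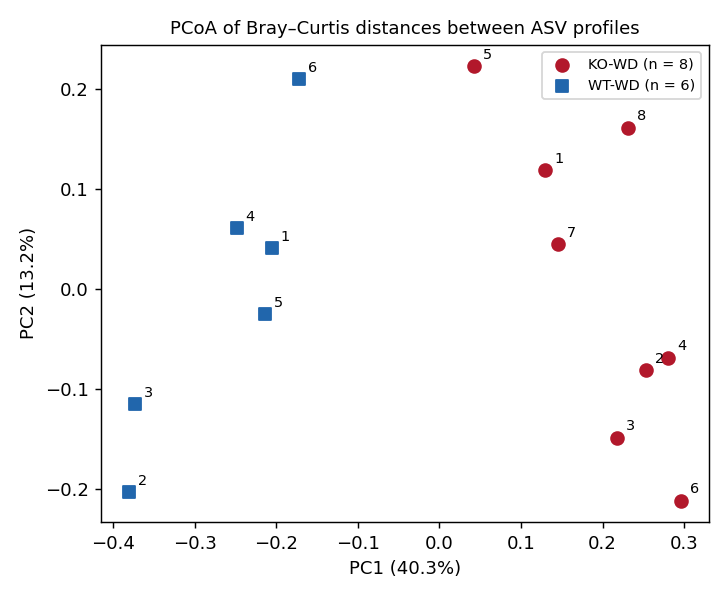
Principal coordinates of Bray–Curtis distances between the ASV profiles of the 14 libraries (PC1, 40.3% of the variance, against PC2, 13.2%), with 1 point per mouse labelled by its replicate number. All 8 KO-WD mice have positive PC1 values and all 6 WT-WD mice negative ones, and KO-WD replicate 5 is the KO-WD mouse nearest to 0.

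KO-WD replicate 5 differed from the other KO-WD mice. Its mean Bray–Curtis distance was 0.591 to them and 0.662 to WT-WD mice, and its mean Jaccard distance was 0.835 to them and 0.827 to WT-WD mice. It had no counts of Muribaculaceae, *[Prevotella]* or AF12, the highest shares of *Bacteroides* and Desulfovibrionaceae and the lowest share of *Lactobacillus*. Without it, 19 genera passed, among them all 13 that passed with it. The count of genera lower in KO-WD mice was then 11, against 5 with all mice. The 6 genera added were *Adlercreutzia* (log2 fold change -1.37), *Anaerotruncus* (-3.02), the unnamed Clostridiales genus (-2.55), *Mucispirillum* (-6.30), the unnamed Ruminococcaceae genus (-3.62) and *[Ruminococcus]* of the Lachnospiraceae (-1.16), with edgeR adjusted p of 0.0498 for each except the unnamed Clostridiales genus (0.0321). *Mucispirillum* had counts in only 2 WT-WD mice, 4.30% in replicate 2 and 0.0648% in replicate 6. With KO-WD replicate 5 kept and WT-WD replicate 2 left out, the log2 fold change of its phylum Deferribacteres was 3.24. The value of the unnamed Ruminococcaceae genus rested on WT-WD replicates 4 and 5 (8.28% and 5.95%). Leaving out WT-WD replicate 1 or WT-WD replicate 6 reduced the genera lower in KO-WD mice to 3, with 43 genera tested in place of 45. The Erysipelotrichaceae *Clostridium* had counts in only 4 WT-WD mice, including both of these, so it was then not tested. *Escherichia* also had counts in only 4 WT-WD mice and was not tested without replicate 6.

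Diversity within a mouse did not separate the genotypes after adjustment. The Shannon index, which combines number and balance of ASVs, was 4.34 ± 0.375 in KO-WD mice and 4.79 ± 0.489 in WT-WD mice (SD, exact two-sided rank-sum test, p = 0.181, adjusted over 3 measures 0.272). Expected richness at 22550 counts was 128 ± 24.99 ASVs in KO-WD mice and 131 ± 26.5 in WT-WD mice (exact p = 0.950). Evenness was 0.621 ± 0.0289 in KO-WD mice and 0.682 ± 0.0500 in WT-WD mice (exact p = 0.0426, adjusted 0.128).

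The same genotype comparison on the normal diet used other mice, so its values stand beside these as separate measurements. Of 44 genera tested in KO-ND against WT-ND mice, 13 passed (29.5%), 8 higher (18.2%) and 5 lower (11.4%), and of 182 ASVs 95 passed (52.2%), 56 higher (30.8%) and 39 lower (21.4%). Of the 8 genera that were higher in KO-WD mice, 6 were also higher in KO-ND mice (75% of each list), and of the 5 that were lower, 3 were also lower (60% of each list). No genus passed in opposite directions. Of the ASVs, 39 of the 50 that were higher on the Western diet passed in the same direction on the normal diet (78%, and 69.6% of the 56 higher there), as did 22 of the 32 that were lower (68.8%, and 56.4% of the 39 lower there).

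In values, the unnamed Desulfovibrionaceae genus averaged 2.49% ± 2.03 in KO-ND mice (SD, all 8 mice) and had no counts in WT-ND mice (edgeR adjusted p = 1.19e-05). *[Prevotella]* averaged 6.25% ± 5.43 in KO-ND mice (SD, all 8 mice) and had no counts in WT-ND mice (edgeR adjusted p = 1.66e-05). rc4-4 had no counts in KO-ND mice and averaged 0.670% ± 0.392 in WT-ND mice (SD, all 6 mice, edgeR adjusted p = 1.19e-05), and *C. cocleatum* likewise had no counts in KO-ND mice and averaged 0.619% ± 0.436 in WT-ND mice. The genera that passed on the Western diet alone were *Lactobacillus* (18.2% ± 11.4 in KO-ND and 3.76% ± 5.35 in WT-ND mice, edgeR adjusted p = 0.117), *Oscillospira* (1.11% ± 0.763 in KO-ND and 1.94% ± 1.02 in WT-ND mice, adjusted p = 0.406), the Desulfovibrionaceae genus not assigned and *Escherichia*, of which the last 2 were too rare to test on the normal diet.

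**Figure D5:**
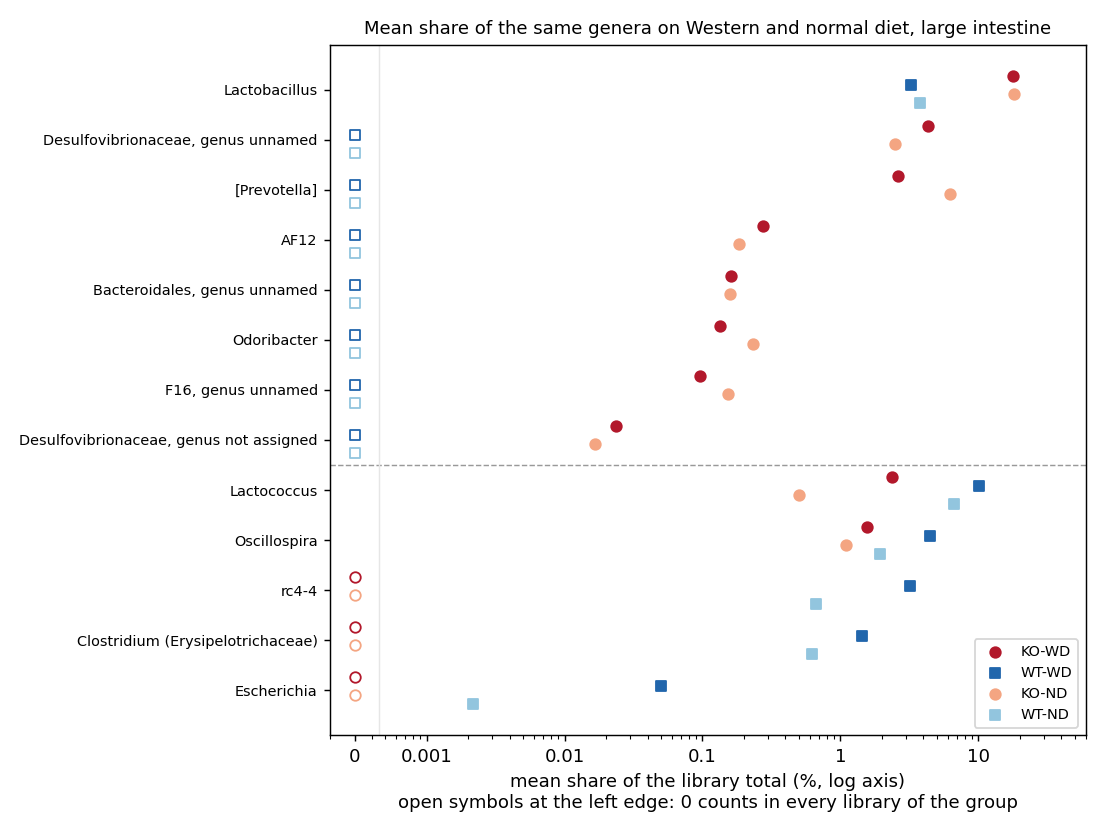
Mean share of the library total (%, log axis) of the 13 genera in KO-WD, WT-WD, KO-ND and WT-ND mice, from top to bottom in each row. Open symbols at the left edge mark groups without counts in any library, and the 7 genera without counts in WT-WD mice were also without counts in WT-ND mice.

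The difference between the diets was itself tested as the genotype by diet interaction over the 28 LI libraries. Of the 48 genera in the fit, 12 had no counts in both groups of a genotype, so that their interaction could not be estimated and could not pass. They included 10 of the 13 genera that passed on the Western diet, all except *Lactobacillus*, *Lactococcus* and *Oscillospira*. None of the other 36 genera passed, and 1 of all 48 had an unadjusted p under 0.05 (2.08%). For *Lactobacillus* the log2 fold change on the Western diet exceeded that on the normal diet by 0.19 (SE 1.29, edgeR adjusted p = 0.9997), and for *Oscillospira* it differed by -0.72 (SE 0.77, edgeR adjusted p = 0.9997). The passing of either on the Western diet alone is thus not shown to be a difference between the diets, and for the other 10 genera this was not tested. Of the 226 ASVs of KO-WD mice only, 130 were found in KO-ND mice (57.5%) and 22 in WT-ND mice (9.73%), and of the 184 ASVs of WT-WD mice only, 86 were found in WT-ND mice (46.7%) and 18 in KO-ND mice (9.78%).

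In the SI of the same Western diet groups, 16 of 29 genera passed (55.2%), 2 higher (6.9%) and 14 lower (48.3%) in KO-WD mice. *Lactobacillus* averaged 39.0% ± 18.4 in the SI of KO-WD mice and 10.0% ± 3.87 in the SI of WT-WD mice (SD, edgeR adjusted p = 0.00221), and *Lactococcus* averaged 1.56% ± 1.98 in the SI of KO-WD mice and 19.9% ± 7.00 in the SI of WT-WD mice (SD, edgeR adjusted p = 0.00205). The Desulfovibrionaceae genus was found in the SI of 1 KO-WD mouse, and *[Prevotella]*, AF12 and *Odoribacter* had no counts in the SI. The log2 fold change of KO-WD over WT-WD differed between the sites for 5 of 49 genera (10.2%), each less negative or more positive in the LI. For 13 of the 49 the site term could not be estimated, since 1 genotype or the whole SI was without counts, and these included 8 of the 13 genera that passed in the LI, among them the unnamed Desulfovibrionaceae genus, *[Prevotella]* and rc4-4. With p-values adjusted over the other 36 genera, an alternative chosen after seeing the data, *Oscillospira* and *Coprococcus* passed too (adjusted p = 0.0404 for each). With centred log ratios 8 genera differed in this direction and 7 in the opposite one. The Lachnospiraceae genus not assigned averaged 3.88% in the LI of KO-WD mice and 6.24% in the LI of WT-WD mice, against 0.135% in the SI of KO-WD mice and 2.71% in the SI of WT-WD mice. Its genotype by site term, fitted with the mouse as a block, was 7.62 (SE 1.43, edgeR adjusted p = 0.000128). Fitted at each site alone, its log2 fold changes were -0.69 in the LI and -4.33 in the SI. The unnamed Muribaculaceae genus averaged 5.01% in the LI of KO-WD mice and 8.21% in the LI of WT-WD mice, against 0.0166% in the SI of KO-WD mice and 0.434% in the SI of WT-WD mice. Its site term was 5.69 (SE 1.56, edgeR adjusted p = 0.00843), and its log2 fold changes at each site alone were -0.71 in the LI and -4.68 in the SI. The other genera that passed were *Ruminococcus* (site term 6.59), *[Ruminococcus]* of the Lachnospiraceae (5.52) and *Dorea* (7.33). *Dorea* and *Coprococcus* had no counts in the SI of KO-WD mice, so the sizes of their terms are not measured differences.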

How the data were processed

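Contents of the LI were sequenced for the 16S rRNA gene. For quality the authors trimmed by Sickle 1.33 after primer matching (FASTX-Toolkit 0.0.14), joined read pairs by FLASH 1.2.11, denoised the sequences with DADA2 in QIIME 2 2021.4 and classified the ASVs by Greengenes 13_8. The deposited table holds raw counts of 938 ASVs per library, not normalized. Totals of 22550 to 35236 counts per library set the precision, and PCR reads carry no molecular identifiers, so limits cover counting error only. Groups were taken from the labels, which give no batch.

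Counts were summed by lineage. A taxon was tested when its mean share in the libraries of a fit reached 0.01% and at least 4 of them had counts, by edgeR 4.0.16 (quasi-likelihood, library totals as scaling). For the site difference, SI and LI libraries that bear the same number were taken as 1 mouse. Distances were tested by PERMANOVA over all divisions of the mice. The scripts were tested on simulated counts. Every phylum tested, every genus past the threshold, the 10 most abundant genera, 12 lists of taxa and the ASVs with the largest changes or shares were described. Members and lists were chosen with earlier results of these data known. Alternatives were TMM factors, DESeq2 1.42.0, limma 3.58.1 after centring log ratios (pseudocount 0.5), no filter on rare taxa, a filter at 0.1%, exact rank-sum tests, all 4 LI groups in 1 fit, a block for the replicate number, and leaving out each library.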

Additional observations from a re-analysis of the deposited data

Results flagged for a closer look

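A library that lay far from the rest of its own group was sought in 186 group and taxon pairs, and 39 were found, 9 of them in KO-WD replicate 5. Chance alone flags about 1 in 20 groups, and a phylum, its family, its genus and its variant can hold the same counts. KO-WD replicate 5 was far above the other KO-WD mice in Proteobacteria (17.2%), Desulfovibrionaceae and its variant ASV_013 (16.6%), Bacteroidaceae, *Bacteroides* and its variant ASV_016 (23.1%), Deferribacteres (0.945%) and ASV_227 of *Allobaculum* (0.355%). KO-WD replicate 7 was far above in *Akkermansia*, its phylum Verrucomicrobia and its variant ASV_009 (8.49%), in TM7 and F16 (0.363%), in ASV_323 of F16 (0.247%) and in ASV_563 of the unnamed Bacteroidales genus (0.0799%).

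KO-WD replicate 3 was far above in *Lactococcus* (9.64%), its family Streptococcaceae (9.70%), the variants ASV_006 (4.96%) and ASV_007 (4.68%) and ASV_098 of *Oscillospira* (0.0774%). KO-WD replicate 6 was far above in the unnamed Bacteroidales genus (0.568%), its variant ASV_620 (0.0310%) and the Muribaculaceae variants ASV_019 (0.144%) and ASV_035 (0.0722%). KO-WD replicate 4 was far above in ASV_094 of the Lachnospiraceae (1.48%), and KO-WD replicate 8 in ASV_044 of the Lachnospiraceae (0.201%) and ASV_584 of *Allobaculum* (0.0990%).

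Among WT-WD mice, replicate 1 was far above in *Lactococcus* (21.1%), Streptococcaceae (21.4%), ASV_006 (11.2%) and ASV_011 of *Lactobacillus* (1.44%). WT-WD replicate 2 was far above in Deferribacteres (4.30%), ASV_037 of SMB53 (0.320%) and ASV_055 of *Oscillospira* (1.72%), and WT-WD replicate 3 in Bacteroidetes (25.4%) and ASV_021 of the Muribaculaceae (7.36%).

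The genotype by site term of the edgeR fit with the mouse as a block compared KO-WD over WT-WD in the LI with the SI. It was 7.62 for the Lachnospiraceae genus not assigned, 6.59 for *Ruminococcus* and 5.52 for *[Ruminococcus]* of the Lachnospiraceae. For the unnamed Muribaculaceae genus it was 5.69, and for *Dorea* 7.33. The term is not the difference of the fold changes fitted at each site alone. *Dorea* had no counts in the SI of KO-WD mice, so the size of its term is not a measured difference.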

How the results depend on the processing

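With library totals, 2 phyla, 7 families, 8 genera and 50 ASVs were higher and 0, 3, 5 and 32 lower in KO-WD mice. Higher phyla numbered 1 with the 0.1% filter, the replicate block or the rank-sum test, and lower phyla 2 with DESeq2 (Firmicutes and Verrucomicrobia) and 1 with centred log ratios. Higher families numbered 2 with the 0.1% filter, and lower families 7 with centred log ratios, 5 with the rank-sum test and 2 to 5 with 1 library left out. Higher genera numbered 3 with the 0.1% filter, and lower genera 3 with TMM, 8 with DESeq2, 8 with centred log ratios, 9 with the rank-sum test and 3 to 11 with 1 library left out. The 0.1% filter tests fewer taxa. ASVs numbered 109 higher and 186 lower without the filter, 23 and 19 with the 0.1% filter, 82 and 55 with all 4 groups in 1 fit, and 29 and 44 by the rank-sum test. The site difference gave 3 higher genera with TMM, and 8 higher and 7 lower with centred log ratios, against 5 and 0. With genera in place of ASVs the evenness difference was -0.0350 (exact p = 0.0813) and the richness difference 1.63 genera, against -3.42 ASVs, with KO-WD minus WT-WD as the direction. With 1 library left out, evenness differed by -0.0735 to -0.0462 (exact p = 0.00622 to 0.0932) and richness by -8.48 to 4.91. The causes were not tested. The interaction gave 0 genera under each alternative run, also where p-values were adjusted over the 36 genera whose term could be estimated. The site difference then gave 7 higher and 0 lower.

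The replicate numbers do not pair the mice: the deviations of same-numbered KO-WD and WT-WD mice correlated at -0.296 to 0.297, and the own number was the best match for 1 of 6. With the replicate number as a block, 1 phylum, 0 families and 0 genera were higher, 0 families and 0 genera lower, and 18 ASVs higher and 21 lower. ASV_002 (adjusted p = 0.000262) and ASV_009 (adjusted p = 0.000843) passed with the block, and ASV_021, ASV_034, ASV_098, ASV_123, ASV_240 and ASV_324 did not (adjusted p = 0.0593 to 0.0953).

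Of the 82 taxa chosen by the naming rule and tested, 10 turned their sign under some alternative, none of them past the threshold with library totals. Their log2 fold changes were -0.046 for Actinobacteria and -0.65 for Bacteroidetes with DESeq2. With centred log ratios they were -0.47 for Bacteroidetes, -0.19 for *Allobaculum*, -0.058 for ASV_001 and -0.32 for ASV_017. With TMM they were 0.015 for the Lachnospiraceae genus not assigned, 0.077 for ASV_014 and 0.020 for ASV_055. With the replicate block they were 0.0060 for Firmicutes, -0.13 for *Allobaculum*, -0.13 for ASV_001 and -1.16 for ASV_017, whose mean rank differed by -0.292 in the rank-sum test. With 1 library left out the ranges were -6.31 to 3.24 for Deferribacteres, -0.081 to 0.059 for Firmicutes, -0.081 to 0.14 for *Allobaculum*, -0.084 to 0.14 for ASV_001, -0.80 to 0.55 for ASV_014 and -0.51 to 1.34 for ASV_017. Depth limits what can be said of rare taxa, since 3 counts are 0.00129% of the pooled KO-WD and 0.00156% of the pooled WT-WD total.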
